A study of Rattus norvegicus with 20 samples.

Results

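Endothelial and blood-brain barrier genes were followed through 5 regions of the injured rat nervous system. The 10 genes were chosen by name: the junction genes Cldn5, Ocln and Tjp1, the endothelial adhesion genes Pecam1 and Cdh5, the receptor genes Tek, Flt1 and Kdr, and the transporter genes Mfsd2a and Slc2a1. The table of 30443 genes held 9 of them, each in a single row, and Pecam1 was not listed under that symbol and was not analysed here. All 9 reached 1 FPKM (fragments scaled by transcript length and by the mapped reads of the library) in at least 1 library, as did 15210 genes in all.

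RNA was sequenced from 4 wild-type adult female Long-Evans rats of about 6 to 8 months and 275 to 350 g, 2 stimulated and 2 control. Every animal, controls included, had a cervical level 4 hemicontusion with 0.7 mm displacement and, 2 weeks later, an electrode array implanted in the motor cortex opposite the injury. The stimulated animals received 1 week of cortical stimulation, 5 hours a day at 10 Hz and 80% of movement threshold. The authors give this as 5 days of stimulation, begun 3 weeks after injury, with tissue taken once it ended. The controls were connected to a sham stimulator without current. Region 1 was subcortical white matter below the implant, region 2 the matching white matter of the other hemisphere, region 3 cord rostral to the injury, region 4 cord at the lesion and region 5 cord caudal to it. No uninjured animal and no animal without an implant was analysed here, so the levels describe tissue after both operations, and implant and hemisphere cannot be told apart in regions 1 and 2. Animals were perfused with saline before dissection.

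Endothelial cells line every vessel, and those of brain and cord are sealed to each other and carry few vesicles, which forms the blood-brain and blood-spinal cord barriers. Tight junctions close the gap between neighboring cells, adherens junctions hold the cells together, and dedicated transporters move glucose, lipids and amino acids across. VEGF and angiopoietin receptors on the same cells govern vessel growth and stability. Injury of the cord is known to open the barrier and to be followed by vessel growth.

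The label of the white matter pieces was checked against cell type markers. Slc17a7, the vesicular glutamate transporter of cortical neurons, stood between 225 and 329.1 FPKM in the 8 libraries of regions 1 and 2 and between 0.318 and 11.8 FPKM in the 12 cord libraries. Tbr1, a cortical transcription factor, stood between 10.7 and 18.7 FPKM in the former and at no more than 0.105 FPKM in cord. The myelin gene Mbp stood between 385 and 1484 FPKM in regions 1 and 2 and between 3836 and 5813 FPKM in cord. The pieces labelled white matter thus held RNA of cortical neurons and less myelin RNA than cord, and they are called white matter below only as their label. In white matter stimulated animal 2 stood apart in several genes. Selp, the P-selectin of activated vessel wall, was at 3.59 FPKM in its region 1 and 1.85 FPKM in its region 2. Every other library was at the lower limit of 0.1 FPKM. Other genes of activated endothelium were mixed in region 1: Icam1 was highest in this animal, Cav1 lowest (7.45 FPKM, others 8.60 to 9.15), and Apln within the others. Genes of other cells stood apart there too, such as the fibroblast gene Col1a1 (38.9 FPKM, others 7.98 to 12.8) and the microglia and macrophage gene Ptprc (10.9 FPKM, others 2.22 to 4.04).

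The 9 genes differed widely in level. On the FPKM scale, which is per transcript length, Slc2a1 and Cldn5 were highest, with values from 20.6 to 55.8 and from 22.2 to 45.0 FPKM. Kdr was lowest, from 0.748 to 2.13 FPKM. The highest library exceeded the lowest by 1.86-fold for Tek and by 4.39-fold for Cdh5, which were the least and the most variable of the 9. The mean was highest in region 5 for 8 genes and in region 4 for Ocln, and it was lowest in region 2 for 8 genes and in region 1 for Mfsd2a. The plot of levels by region shows this order. The median of all genes kept was likewise higher in region 5, by log2 differences of -0.11 for region 3 minus region 5 and -0.14 for region 4 minus region 5, which were 0.02 and -0.03 after quantile normalization.

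**Figure D1:**
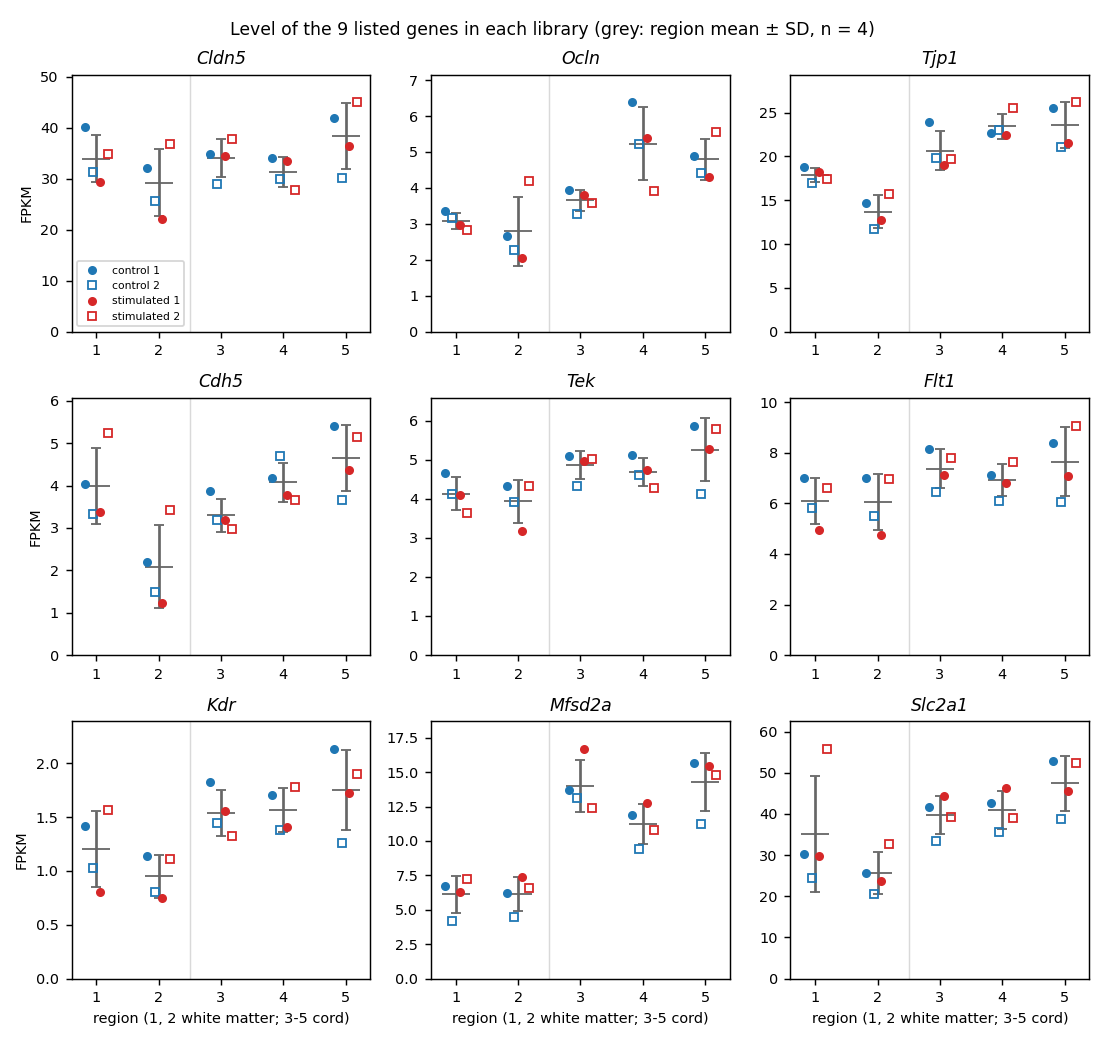
Level in FPKM (y axis, from 0) of each of the 9 genes in the 20 libraries by region (x axis), with a point per animal and the region mean ± SD in grey (n = 4). Mfsd2a and Tjp1 have no white matter library as high as the lowest cord library, whereas the Cldn5 values of all 5 regions overlap.

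White matter against spinal cord was compared with limma on log2 FPKM over all 20 libraries. Of the 9 genes, 8 were lower in white matter and none was higher, and 7 passed after quantile normalization or upper-quartile scaling, each without Flt1, where 39.6% and 43.4% of all genes kept were lower. Of all genes kept, 72.2% passed the test, 47.1% as lower and 25.0% as higher in white matter. The calls were thus 34.7% higher, against 45.6% after quantile normalization and 59.7% relative to other endothelial genes. The median log2 difference of the 9 was -0.53, and that of all genes kept was -0.18 (-0.04 after quantile normalization, where the 9 were at -0.38). Passing the test was common between these tissues, and the size of each difference is given beside its levels. In bulk tissue, fewer endothelial cells and less RNA per cell cannot be told apart. The 12 cord and 8 white matter libraries came from the same 4 animals, and 8 genes also passed in a fit that blocks on animal.

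Among the tight junction genes, Cldn5 encodes claudin-5, the main sealing claudin of brain endothelium. Its level in white matter was 22.2 FPKM at the lowest, 31.8 at the median and 40.1 at the highest, and in cord 27.7, 34.2 and 45.0 FPKM. The ranges overlapped, and the log2 difference of -0.14 (SE 0.097) did not pass the test (adjusted p = 0.206, limma with Benjamini-Hochberg adjustment, as for all adjusted p-values here). It was the only one of the 9 that did not.

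Ocln encodes occludin, a membrane protein of the tight junction strand. In white matter it was at 2.06 FPKM at the lowest, 2.89 at the median and 4.18 at the highest, and in cord at 3.28, 4.36 and 6.39 FPKM. White matter was lower by a log2 difference of -0.64 (SE 0.11, adjusted p = 5.51e-05). The highest white matter value was region 2 of stimulated animal 2, and the next, 3.36 FPKM in region 1 of control animal 1, lay within 0.1 FPKM of the lowest cord value.

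Tjp1 encodes ZO-1, the scaffold that ties junction proteins to actin, and is also made by glia and epithelia. White matter libraries ran from 11.7 FPKM through a median of 16.3 to 18.7 FPKM, and cord libraries from 19.0 through 22.6 to 26.2 FPKM. The tissues did not overlap, and the log2 difference was -0.53 (SE 0.064, adjusted p = 5.83e-07). Of all genes kept, 16.8% likewise had every white matter library below every cord library.

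Cdh5 encodes VE-cadherin, the adherens junction protein of endothelium. It was at 1.24 FPKM at the lowest, 3.35 at the median and 5.24 at the highest in white matter and at 2.97, 3.83 and 5.42 FPKM in cord. The log2 difference was -0.52 (SE 0.15, adjusted p = 0.00487), although 11 of the 12 cord libraries were no higher than the highest white matter library. Its 3 lowest values of all 20 libraries were in region 2.

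The receptor genes moved by unequal amounts. Tek encodes TIE2, the angiopoietin receptor. Its white matter values were 3.17, 4.10 and 4.67 FPKM at the lowest, median and highest and its cord values 4.11, 5.00 and 5.87 FPKM, a log2 difference of -0.29 (SE 0.078, adjusted p = 0.00261). Flt1 encodes VEGF receptor 1, which binds VEGF tightly and limits its signal. Its white matter values were 4.75, 6.20 and 7.001 FPKM and its cord values 6.05, 7.13 and 9.08 FPKM, a log2 difference of -0.28 (SE 0.094, adjusted p = 0.0139). Kdr encodes VEGF receptor 2, the main signaling receptor. Its white matter values were 0.748, 1.07 and 1.56 FPKM and its cord values 1.26, 1.63 and 2.13 FPKM, a log2 difference of -0.62 (SE 0.14, adjusted p = 0.000521). For Tek and Flt1, 4 of the 12 cord libraries lay within the white matter range, and for Kdr 6 did.

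Slc2a1 encodes GLUT1, the glucose transporter of barrier endothelium and of astrocytes. Its white matter values were 20.6 FPKM at the lowest, 27.7 at the median and 55.8 at the highest, and its cord values 33.5, 42.2 and 52.9 FPKM. White matter was lower by a log2 difference of -0.54 (SE 0.13, adjusted p = 0.00081). The highest value of all 20 libraries was nevertheless a white matter one, region 1 of stimulated animal 2.

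Mfsd2a, the lysophospholipid transporter that carries docosahexaenoic acid and restrains vesicle transport in barrier endothelium, had the largest difference of the 9. Its white matter values ran from 4.22 FPKM through a median of 6.45 to 7.35 FPKM, and its cord values from 9.41 through 12.96 to 16.7 FPKM. The tissues did not overlap, and the log2 difference was -1.11 (SE 0.11, adjusted p = 4.14e-08). Mfsd2a and Tjp1 were thus the 2 genes of the 9 without overlap, where 27.1% of all genes kept had none.

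The promoters of Flt1, Kdr and Slc2a1 are printed because these 3 genes, the VEGF receptors and the glucose transporter, are known to respond to oxygen and growth factor signals and were all lower in white matter. RefSeq promoters on the GRCr8 assembly matched 6 of the 10 genes: Cldn5, Ocln, Tjp1, Flt1, Kdr and Slc2a1. The 250 bases before each gene start are given 5′ to 3′ in the sense of the gene, with exact matches to the motifs searched in capitals. They lie at chr12:12333180-12333429 (+ strand, Flt1), chr14:32571813-32572062 (+ strand, Kdr) and chr5:138002272-138002521 (+ strand, Slc2a1).
Flt1 promoter: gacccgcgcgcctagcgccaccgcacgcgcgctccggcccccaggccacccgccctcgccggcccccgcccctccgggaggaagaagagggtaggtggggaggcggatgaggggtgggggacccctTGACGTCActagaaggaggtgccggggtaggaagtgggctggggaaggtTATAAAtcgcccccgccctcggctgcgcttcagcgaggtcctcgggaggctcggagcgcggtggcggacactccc
Kdr promoter: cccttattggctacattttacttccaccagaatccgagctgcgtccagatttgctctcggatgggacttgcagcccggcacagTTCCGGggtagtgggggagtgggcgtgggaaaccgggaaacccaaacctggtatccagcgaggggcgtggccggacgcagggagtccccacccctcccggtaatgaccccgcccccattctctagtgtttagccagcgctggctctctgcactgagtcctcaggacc
Slc2a1 promoter: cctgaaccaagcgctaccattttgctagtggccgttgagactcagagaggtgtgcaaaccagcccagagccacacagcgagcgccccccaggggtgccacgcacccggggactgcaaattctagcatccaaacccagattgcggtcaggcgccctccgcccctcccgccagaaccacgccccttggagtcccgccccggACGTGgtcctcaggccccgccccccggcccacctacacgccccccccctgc
The 4 motifs searched on both strands were TATAAA (the TATA box), CCGGAA (the ETS core), ACGTG (the hypoxia response core) and TGACGTCA (the cyclic AMP response element). The last 2 share the letters ACGT, and neither contains the other. In Flt1, TGACGTCA began 124 bases and TATAAA 75 bases before the start. In Kdr, CCGGAA lay on the opposite strand 167 bases before the start, and in Slc2a1, ACGTG began 51 bases before it. Of 33469 rat promoters of RefSeq in a window of the same length, TATAAA stood in 12.9%, CCGGAA in 12.6%, ACGTG in 16.6% and TGACGTCA in 1.59%. The motifs were chosen after the sequences were seen, and a match describes letters only. The Cldn5, Ocln and Tjp1 windows held none of the 4.

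Other endothelial genes gave a measure of vessel RNA that did not use the 9. The endothelial reference list was Esam, Tie1, Erg, Sox18, Robo4 and Egfl7, of which Robo4 stayed under 1 FPKM in every library. Of the 5 tested, only Tie1, an orphan receptor that pairs with TIE2, passed the test between white matter and cord (log2 difference -0.59, SE 0.12, adjusted p = 0.000307), and the median of the list was -0.14. Summed over the list, white matter stood between 11.6 and 23.4 FPKM and cord between 15.0 and 23.7 FPKM. The mean log2 level of the list was 0.83 ± 0.31 (SD, n = 8) for white matter, and cord stood at 1.11 ± 0.19 (SD, n = 12).

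Relative to the mean of that list in the same library, 4 of the 9 genes remained lower in white matter: Mfsd2a (-0.83), Ocln (-0.36), Kdr (-0.34) and Slc2a1 (-0.26). Of all genes kept, 22.2% were lower on this scale. Tjp1 was at -0.25 and Cdh5 at -0.24 on this scale, with adjusted p of 0.0783 and 0.0919. Tek was at -0.0096 and Flt1 at 0.0058, with adjusted p of 0.951 and 0.966. Without Robo4, a choice added after seeing the data, 6 passed, Tjp1 and Cdh5 with the other 4, and 26.9% of all genes kept were lower. On this relative scale the level of Mfsd2a was 1.76 ± 0.37 (SD, n = 8) for white matter and reached 2.59 ± 0.21 (SD, n = 12) in cord, and that of Flt1 was 1.76 ± 0.20 and 1.75 ± 0.14. Relative to other endothelial genes, Mfsd2a was thus higher in cord than in white matter, and Flt1 had no difference that passed.

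**Figure D2:**
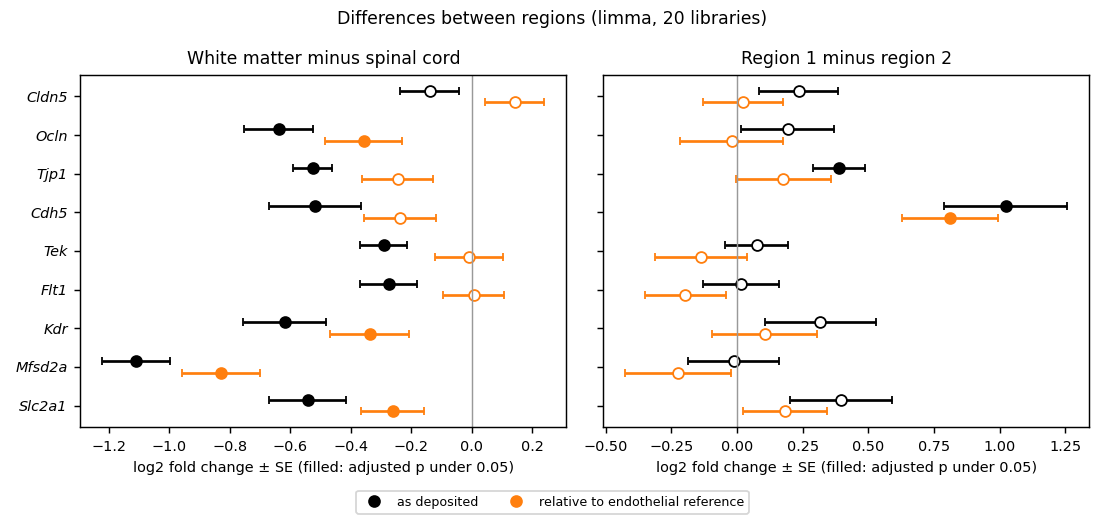
Log2 fold change ± SE (x axis) of the 9 genes for white matter minus spinal cord (left) and region 1 minus region 2 (right), with deposited FPKM in black and levels relative to the endothelial reference list in orange; filled points had an adjusted p under 0.05. On the left 8 black points are filled and 4 orange ones; on the right Cdh5 and Tjp1 are filled in black and Cdh5 alone in orange.

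The wider barrier program was described with lists of named genes. All 11 barrier transporters were lower in white matter, with a median log2 difference of -0.64, and 8 passed after quantile normalization and 5 relative to the endothelial reference list. Among them were Slc16a1, which carries lactate (-1.26), Abcg2 (-1.04) and Abcb1a (-0.51), which export drugs, Tfrc, the transferrin receptor (-0.70), and Slc7a5, which carries large amino acids (-0.22). Of 7 other junction genes tested, 6 were lower (5 relative to the reference list), with a median of -1.35, led by Cldn1 (-2.68) and Jam2 (-1.61). Cldn1 was at 0.1 to 0.274 FPKM in white matter, at or near the lower limit, so the size of its difference is uncertain. Ctnnb1, which encodes β-catenin, was at -0.16 (adjusted p = 0.0583). Of 11 genes of the Wnt and Norrin pathway that maintains the barrier, 5 were lower and 2 higher. Their median log2 difference of -0.18 equalled that of all genes kept, of which 47.1% were lower and 25.0% higher. Relative to the reference list 3 were lower and 3 higher, where 22.2% of all genes kept were lower. In this pathway the coreceptor Tspan12 was lower by a log2 difference of -1.06 and the ligand Wnt7a by -0.79. The receptor Fzd4 (0.24) and the target Axin2 (0.28) were higher.

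The ligands of the 3 receptors moved in both directions. Of 8 VEGF and angiopoietin genes tested, 4 were lower in white matter and 1 was higher. Of all genes kept, 47.1% were lower and 25.0% higher, so these counts do not set the list apart. Pgf, which encodes placental growth factor, a ligand of Flt1, was at 0.1 to 0.954 FPKM in white matter and 2.02 to 4.02 FPKM in cord (log2 difference -3.45). Vegfb, another Flt1 ligand, was at -1.07, Angpt1, the TIE2 agonist, at -1.32 and the coreceptor Nrp2 at -1.33, whereas Vegfc, the ligand of lymphatic growth, was higher in white matter (1.06). Vegfa, the main ligand of Kdr, was at 0.26 (adjusted p = 0.0597). Of 8 genes of activated or leaky endothelium, 5 were lower in white matter, among them Plvap, the diaphragm protein of fenestrated and leaky vessels, at 0.482 to 1.17 FPKM against 1.63 to 2.96 FPKM in cord (-1.81). A white matter value at 0.1 FPKM, as in Pgf, is the lower limit of the table, so that difference depends on the limit.

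Other cell types also differed between the tissues, where 47.1% of all genes kept were lower and 25.0% higher in white matter. Of the marker lists, 5 of 7 pericyte genes (relative to the reference list 1 lower and 1 higher, summed 31.9 to 63.8 FPKM in white matter and 54.4 to 72.7 in cord) and 2 of 3 smooth muscle genes were lower in white matter, as were 4 of 4 oligodendrocyte genes, 3 of 4 astrocyte genes, 3 of 4 microglia and macrophage genes (1 of 4 relative to the reference list), 2 of 3 fibroblast genes and 4 of 5 blood cell genes. All 4 cortical neuron genes and 3 of 4 other neuron genes were higher, and of 3 epithelial and choroid plexus genes 2 were lower and 1 higher. The remaining astrocyte gene, Slc1a3, went the other way and was higher in white matter (93.9 to 145.5 FPKM, cord 36.0 to 55.1). The remaining neuron gene, Nefm, was lower in white matter (12.5 to 21.7 FPKM, cord 91.4 to 200.9). Hba-a2, a hemoglobin gene, was at 0.764 to 3.92 FPKM in white matter and 6.64 to 81.2 FPKM in cord. The part of these cell types in the results for the 9 genes was not tested.

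Regions 1 and 2 were compared to set the hemisphere with the implant against the other. Cdh5 was higher in region 1, and so was Tjp1, and the other 7 genes did not pass the test. Of all genes kept, 8.61% passed the test, 6.86% as higher in region 1, so that 79.6% of the calls were higher there (52.9% after quantile normalization). Cdh5 was at 4.03 and 3.33 FPKM in region 1 of the controls and 3.37 and 5.24 FPKM in that of the stimulated animals, and at 2.203, 1.49, 1.24 and 3.42 FPKM in region 2 of the same animals. The ranges overlapped because of region 2 of stimulated animal 2, but within each of the 4 animals region 1 was higher, by log2 differences from 0.62 to 1.45. The mean log2 difference was 1.02 (SE 0.23, adjusted p = 0.0137).

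Tjp1 was at 18.7, 17.0, 18.3 and 17.4 FPKM in region 1 of controls 1 and 2 and stimulated animals 1 and 2, and at 14.7, 11.7, 12.7 and 15.7 FPKM in region 2. All region 1 values lay above all region 2 values, with a log2 difference of 0.39 (SE 0.10, adjusted p = 0.0229). Both calls were lost when any of 3 animals was left out: leaving out control animal 1, control animal 2 or stimulated animal 1 gave 0 of the 9. Most calls over all genes were lost as well, with 95, 97 and 26 of 15210 passing in that order, against 1310 with every animal. The differences stayed between 0.88 and 1.07 for Cdh5 and between 0.34 and 0.40 for Tjp1. Without stimulated animal 2, 3 passed, Ocln (0.44) with Cdh5 and Tjp1, and 21.6% of all genes kept were higher in region 1.

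Relative to the endothelial reference list, Cdh5 remained higher in region 1 (log2 difference 0.81) and Tjp1 did not pass (0.18, adjusted p = 0.632), where 1.67% of all genes kept were higher. Of the 5 reference genes 0 passed by limma, and 1 had an unadjusted p under 0.05. Slc2a1 was higher in region 1 in all 4 animals, by log2 differences from 0.24 to 0.77, without passing the test (0.40, SE 0.20, adjusted p = 0.217). Kdr was also higher in all 4, by 0.10 to 0.50, and did not pass (0.32, SE 0.21, adjusted p = 0.384). Mfsd2a and Flt1 were at log2 differences of -0.012 (SE 0.17) and 0.016 (SE 0.15).

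Some markers of other cells also differed in this contrast. Of the 15210 genes kept, 1043 were higher in region 1 (6.86%) and 267 were lower. Region 1 was higher in 4 of 4 oligodendrocyte genes, 3 of 3 fibroblast genes, 3 of 7 pericyte genes, 2 of 4 astrocyte genes, 1 of 4 microglia and macrophage genes and 1 of 5 blood cell genes, and lower in 1 of 4 neuron genes (3 after quantile normalization, 0 relative to the reference list), with 0 of 3 smooth muscle genes, 0 of 4 cortical neuron genes and 0 of 3 epithelial genes passing by limma (0, 1 and 1 at an unadjusted p under 0.05). The astrocyte gene Gfap was at 353 to 884 FPKM in region 1, and in region 2 at 678 FPKM in stimulated animal 2 and at 70.1 to 91.5 FPKM in the other 3 animals. Also higher in region 1 were Cav1, which encodes caveolin-1 (0.42), the transporter Abcc4 (0.70) and Nrp2 (0.81), none of which passed relative to the reference list. The part of these cells in the values of Cdh5 and Tjp1 was not tested.

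In the cord, the lesion was set against the cord above and below it. None of the 9 genes passed by limma between regions 3 and 4, where 19.6% of all genes kept did, and 1 of them, Ocln, had an unadjusted p under 0.05. Ocln was at 3.95, 3.28, 3.81 and 3.57 FPKM in region 3 of controls 1 and 2 and stimulated animals 1 and 2, and at 6.39, 5.21, 5.38 and 3.92 FPKM at the lesion. It was higher at the lesion in all 4 animals, by log2 differences from 0.14 to 0.70, with the smallest in stimulated animal 2. The value for region 3 minus region 4 was -0.50 (SE 0.18, adjusted p = 0.0527), and it passed without stimulated animal 2 (-0.62, adjusted p = 0.00162), when 32.3% of all genes kept were called.

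With the animal as a block, 2 genes passed between regions 3 and 4, as did 24.0% of all genes kept. Ocln passed at an adjusted p of 0.0499, and Mfsd2a was lower at the lesion (region 3 minus region 4, 0.31, SE 0.11, adjusted p = 0.0411). Mfsd2a was at 13.7, 13.1, 16.7 and 12.4 FPKM in region 3, at 11.9, 9.41, 12.8 and 10.8 FPKM at the lesion and at 15.7, 11.2, 15.5 and 14.8 FPKM in region 5. The lesion was the lowest of the 3 cord regions in each animal, although the ranges overlapped. Between regions 4 and 5 the block called Mfsd2a as well (-0.34, SE 0.11, adjusted p = 0.0447), where it called 12.9% of all genes kept, and without it none of the 9 passed by limma, and 0 had an unadjusted p under 0.05, with 7.99% of all genes kept called.

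Cdh5 was higher at the lesion than in region 3 in all 4 animals, by log2 differences from 0.11 to 0.56, and did not pass (region 3 minus region 4, -0.31, SE 0.23, adjusted p = 0.375). Cldn5 was lower at the lesion than in region 5 in all 4 animals, by -0.02 to -0.70, also without passing (-0.28, SE 0.15, adjusted p = 0.217). Between regions 3 and 5 none of the 9 passed by limma, 1 (Ocln, -0.39) had an unadjusted p under 0.05, and 4.32% of all genes kept were called. For Flt1, Tek and Kdr the 3 cord contrasts lay between -0.17 and 0.09, with SE from 0.12 to 0.21.

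Among the other barrier genes, the differences that passed between regions 3 and 4 were in Jam2, a junction adhesion molecule (-0.52), Tspan12 (-0.30) and Nrp2 (-0.66), all higher at the lesion, and in Vegfa, which was lower there (0.60) but did not pass under the 3 other scalings. Relative to the reference list Jam2 and Tspan12 did not pass either. Vegfa was at 13.7 ± 0.764 FPKM (SD, n = 4) in region 3 and 9.06 ± 0.738 FPKM (SD, n = 4) at the lesion. None of the 11 barrier transporters and none of the 5 reference genes passed by limma between these regions (0 and 1 at an unadjusted p under 0.05). Of the 15210 genes kept, 19.6% passed between these regions, 1031 as higher at the lesion and 1953 as lower. Over the same contrast, 3 of 4 microglia and macrophage genes were higher at the lesion and 3 of 4 neuron genes lower. Anpep, a pericyte and myeloid gene, was also higher at the lesion (-2.69). The part of these cell types in the Ocln and Mfsd2a values was not tested.

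The mean levels put the regions in an order, in which neighbors whose mean ± SD ranges overlapped were not told apart. For Cldn5, Cdh5, Tek, Flt1, Kdr and Slc2a1, all neighbors in the order overlapped. For Cldn5 the order was region 5 (38.4 ± 6.54 FPKM, SD, n = 4, as for the other means here), 3 (34.0 ± 3.69), 1 (33.9 ± 4.68), 4 (31.2 ± 2.99) and 2 (29.2 ± 6.53). For Ocln it was region 4 (5.23 ± 1.01), 5 (4.79 ± 0.566), 3 (3.65 ± 0.291), 1 (3.08 ± 0.234) and 2 (2.79 ± 0.959), with gaps between regions 5 and 3 and between 3 and 1. For Mfsd2a it was region 5 (14.3 ± 2.09), 3 (14.0 ± 1.88), 4 (11.2 ± 1.45), 2 (6.15 ± 1.23) and 1 (6.12 ± 1.32), with the gap between cord and white matter. For Tjp1 the gap lay between region 1 (17.8 ± 0.812) and region 2 (13.7 ± 1.85).

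Stimulation was tested within each region as 2 stimulated against 2 control animals. None of the 9 genes passed in any region by limma, and 0 had an unadjusted p under 0.05. Over all genes kept, 0% passed in regions 1 to 4 and 0.0197% in region 5. The unadjusted p was under 0.05 for 828, 215, 522, 341 and 546 of them, region by region. With 2 animals a group, these p-values do not show that stimulation left the genes as they were.

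The largest difference was in Slc2a1 in region 1. It was at 30.3 and 24.4 FPKM in the controls and at 29.8 and 55.8 FPKM in the stimulated animals. The log2 difference was 0.59 (SE 0.36, adjusted p = 0.712), and it rested on stimulated animal 2, since stimulated animal 1 lay between the controls. The same library held 8.77 FPKM of Icam1, an adhesion molecule of activated endothelium (others 1.69 to 2.48 FPKM), 22.8 FPKM of Vegfa (others 9.12 to 10.4 FPKM) and 29.6 FPKM of Cd68 (others 5.47 to 13.9 FPKM).

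Mfsd2a in region 2 was the sole case in which both stimulated animals lay above both controls. It was at 6.24 and 4.44 FPKM in the controls and 7.35 and 6.58 FPKM in the stimulated animals (log2 difference 0.40, SE 0.22, adjusted p = 0.949). The log2 difference of Mfsd2a was above 0 in all 5 regions, from 0.10 to 0.40, and that of Slc2a1 likewise, from 0.11 to 0.59. The 5 values of a gene come from the same 4 animals.

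Both stimulated animals lay below both controls for Ocln and Tek in region 1, for Cdh5 and Tjp1 in region 3 and for Cdh5 in region 4. Cdh5 at the lesion was at 4.17 and 4.70 FPKM in the controls and 3.78 and 3.66 FPKM in the stimulated animals (-0.25, SE 0.16, adjusted p = 1). Ocln in region 1 was at 3.36 and 3.15 FPKM against 2.96 and 2.83 FPKM (-0.17, SE 0.16, adjusted p = 0.742). Groups that do not overlap were common among all genes kept, at 40.6%, 27.0%, 29.9%, 20.2% and 24.6% for regions 1 to 5, so these counts of 2, 1, 2, 1 and 0 of 9 are all smaller shares than those.

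Whether stimulation acted differently in neighboring regions was tested on differences within animals. None of the 9 passed by limma for region 1 against 2 or for region 3 against 4, 0 had an unadjusted p under 0.05, and 0% of all genes kept passed, with 505 and 653 of them at an unadjusted p under 0.05. Among the 9, the smallest p for regions 1 and 2 belonged to Slc2a1 (0.30, SE 0.20, adjusted p = 0.881) and that for regions 3 and 4 to Ocln (0.36, SE 0.18, adjusted p = 0.92).

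**Figure D3:**
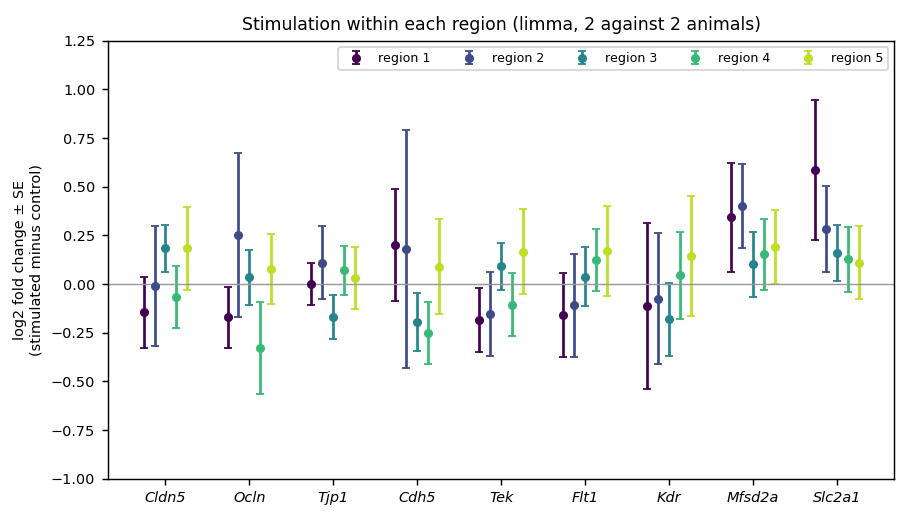
Log2 fold change ± SE of stimulated minus control animals (y axis) for each of the 9 genes (x axis) in the 5 regions (colors), with 2 animals a group. The values of Slc2a1 (0.11 to 0.59) and Mfsd2a (0.10 to 0.40) are above 0 in all 5 regions, and none of the 45 values passed the test.

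None of the genes of the other barrier lists passed for stimulation in any region by limma. In region 1, 3 of 11 transporters had an unadjusted p under 0.05: Slc16a1 (0.78), Slc3a2 (0.36) and Slc22a8 (-0.83). So did Vcam1, an adhesion molecule of activated endothelium (0.57), and Cldn1 (-0.98), which was at the limit of 0.1 FPKM in stimulated animal 2. The others were Slc3a2 in region 2 (0.51), Vegfc in region 4 (-0.46), and in region 5 Angpt2, the TIE2 antagonist (0.78), and Cldn1 (1.01). Of the 15210 genes kept, 828, 215, 341 and 546 were under 0.05 in regions 1, 2, 4 and 5. The lowest adjusted p among these lists was 0.62, for Cldn1 in region 5.

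The levels of the 9 genes varied together across libraries. Over the 20 libraries, which share 4 animals and 5 regions, the Pearson r of log2 FPKM for the 36 pairs had a median of 0.73 and ran from 0.43 (Cldn5 and Mfsd2a) to 0.87 (Flt1 and Kdr). After the mean of each region was subtracted, the median was 0.57 and the range 0.16 to 0.87. Flt1 and Kdr, both VEGF receptors, stayed at 0.87, and Cldn5 with Flt1 and with Tek stood at 0.86 and 0.85. Mfsd2a had the weakest relations, at 0.16 with Ocln and 0.17 with Tek, and its highest was with the other transporter, Slc2a1 (0.70). Within the 12 cord libraries the median was 0.58 (-0.15 to 0.94), and within the 8 white matter libraries 0.58 (-0.22 to 0.91).

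**Figure D4:**
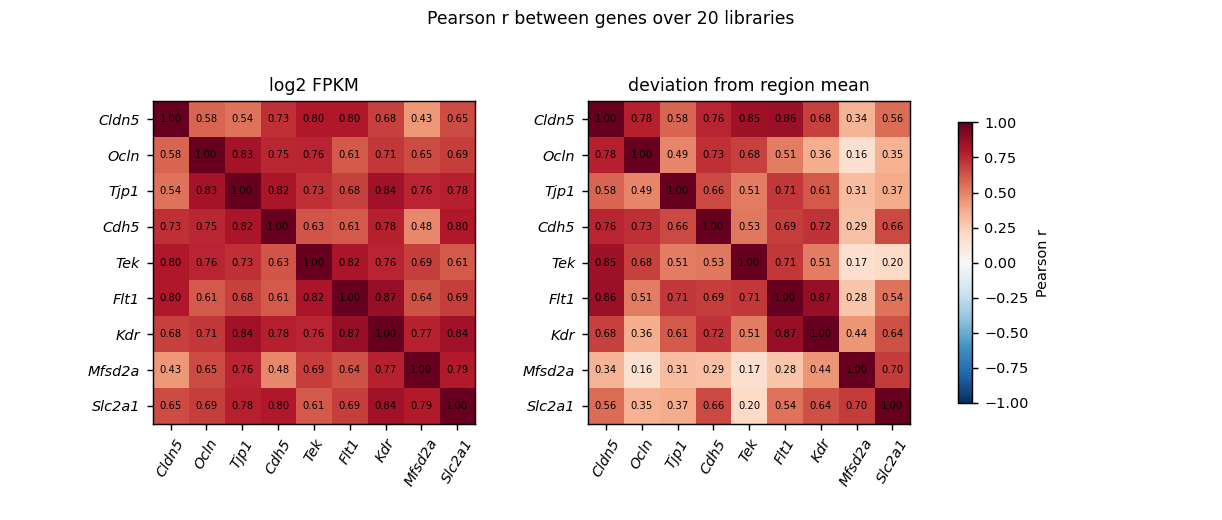
Pearson r between the 9 genes over the 20 libraries, for log2 FPKM (left) and for deviations from the region means (right), with the value printed in each cell. The row of Mfsd2a is the palest on the right, from 0.16 with Ocln to 0.70 with Slc2a1.

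The genes whose log2 FPKM followed each of the 9 most closely over the 20 libraries were taken from all genes kept. For Cldn5 they were Lsr (r = 0.88), Ptgis (0.87), Ephb4 (0.85), Fgd5 (0.84) and Tinagl1 (0.82). Lsr encodes a component of tricellular junctions, Ptgis the prostacyclin synthase and Ephb4 a receptor of venous endothelium. The closest gene was Dock6 for Cdh5 (0.98), Slco1a4, an organic anion transporter of the barrier, for Tek (0.94), Tnfrsf11b for Flt1 (0.91), Epas1, which encodes HIF-2α, for Kdr (0.91), Fam169b for Ocln (0.97), Afap1 for Tjp1 (0.98), Rhbdl3 for Mfsd2a (0.96) and Errfi1 for Slc2a1 (0.97). The r of Cldn5 with its closest gene was the lowest of the 9.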

How the data were processed

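The authors extracted RNA from 5 regions of 4 rats, made ribosome-depleted stranded libraries, sequenced paired 51 bp reads, aligned them to Rnor6 with TopHat2 2.1.0 and estimated expression with Cufflinks 2.2.1. They deposited FPKM values per gene, with values under 0.1 raised to 0.1. The annotation version and the strand setting are not given in the sources used here, so overlapping and antisense genes are uncertain. FPKM values carry no read numbers, so the depth behind each value is unknown and the errors given are those between animals.

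Log2 FPKM with a floor of 0.1 was analysed for the 15210 of 30443 genes that reached 1 FPKM in any library. Regions were compared by limma (version 3.58.1, R 4.3.3, moderated with a mean trend) in 1 fit of 20 libraries with a mean per region, stimulation in the 4 libraries of each region, and its difference between regions on differences within animals. Benjamini-Hochberg adjustment ran over all genes kept, and an adjusted p under 0.05 passed. Tables were made with Python 3.11.15, numpy 2.4.6, pandas 2.3.3 and matplotlib 3.10.9. The fits were tested on simulated data.

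Each animal gave 1 library a region, so region libraries of 1 group and number share an animal (r of deviations from the region means -0.14 to 0.65). Control and stimulated animals share only numbers. Genes named in the text are the 10 chosen genes, the genes of the lists, and the genes closest to each (5 for Cldn5, 1 for the others). Members and lists were chosen with earlier results of these data known. Each list was tested gene by gene. The values of 1 listed gene are not reported here. Alternatives were another offset, other filters, quantile normalization, upper-quartile scaling, scaling to the endothelial reference list, no trend, blocks for animal or number, a single model of all libraries, and leaving out each animal. Promoters came from RefSeq on GRCr8, a later build than that of the table.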

Additional observations from a re-analysis of the deposited data

Results flagged for a closer look

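In each of the 45 groups of 4 libraries (9 genes in 5 regions), the highest and the lowest library were compared with the rest by Dixon's ratio at its 95% critical value. Chance alone marks about 1 in 20 such groups, and 3 were marked. Tek, the angiopoietin receptor, was at 4.32 FPKM in region 3 of control animal 2, under the other 3 animals at 4.98 to 5.10 FPKM. Tjp1, the junction scaffold, was at 23.9 FPKM in region 3 of control animal 1, above the others at 19.0 to 19.8 FPKM. At the lesion Tjp1 was at 25.5 FPKM in stimulated animal 2, above the others at 22.5 to 23.0 FPKM. None of these groups gave a call among the cord regions or for stimulation.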

How the results depend on the processing

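Between white matter and cord, 8 of the 9 genes passed, and 6 to 8 did when each animal was left out in turn, where 6 (without Cdh5 and Flt1) came from leaving out stimulated animal 1. Relative to the endothelial reference list 4 passed, and Flt1 changed sign (0.0058). Between regions 1 and 2, 2 passed, and 0 to 3 did with an animal left out. There 1 passed relative to the reference list, with and without Robo4, a choice added after seeing the data. Between regions 3 and 4, 0 passed as reported, and 1 (Ocln) with log2(FPKM + 1), with quantile normalization and with upper-quartile scaling. Of the 15210 genes kept, 3137, 4842 and 4603 passed in those settings, in that order. With the animal as a replicate block 2 (Ocln and Mfsd2a) passed, and 0 to 1 with an animal left out. Between regions 4 and 5, 1 (Mfsd2a) passed with the animal as a replicate block. The animal block changed no other call. The causes of these changes were not tested. Over all genes kept, the calls behind the shares given as background ranged over the alternatives from 26 to 3674 for regions 1 and 2 (1310 reported), 523 to 4909 for regions 3 and 4 (2984), 54 to 1237 for regions 3 and 5 (657), 5 to 1966 for regions 4 and 5 (1216), and from 0 to 228, 548, 175, 140 and 443 for stimulation in regions 1 to 5. The share of calls higher in the first region moved from 65.4% to 54.0% for regions 3 and 4, from 35.8% to 64.2% for regions 3 and 5 and from 11.7% to 52.3% for regions 4 and 5 with upper-quartile scaling, and relative to the reference list it was 16.9% for regions 3 and 4.

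Of 585 values for single genes between regions under alternatives, 559 kept their side of the threshold, and 50 changed sign. All 630 values for stimulation stayed short of the threshold, and 79 changed sign. With the animal number as a replicate block, 0 of the 9 genes passed for stimulation in each region (0 to 443 of all genes kept), but these numbers name different animals (r of deviations between control and stimulated animals of the same number -0.21 to 0.32), so nothing is read from it. Where leaving out an animal left 1 in a group, it was assumed to vary like the other group. All 18 values for the difference of stimulation effects stayed short of the threshold. The median r among the genes moved from 0.73 to 0.58 within cord and to 0.58 within white matter. Relative to the median of the reference list instead of its mean, the relative levels shifted, and they are comparable only within a list. With 4 animals, 2 a group, effects of the size of the errors given could not be told from none.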
